A study of Homo sapiens with 12 samples.

Results

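The desmosome genes examined here were DSG2, DSC2, DSC3, DSP, JUP, PKP2, PKP3, PKP4 and PERP, taken by symbol, and all 9 were found among the 18950 genes of the table. Their transcripts were quantified in 12 RNA-seq libraries (total RNA) from DU145 and PC3, 2 human prostate cancer cell lines grown in serum-containing medium. Cells were sorted on green fluorescent protein (GFP): the brightest 10% (GFP+) are labelled Wnt/β-catenin active, and the dimmest 10% (GFP-) are labelled inactive. The groups were DU145 GFP+, DU145 GFP-, PC3 GFP+ and PC3 GFP-, with 3 libraries each. No other treatment or gene alteration was labelled, and the construct that drives GFP is not given in the sources used here. Each line is a single established culture, DU145 from a brain metastasis and PC3 from a bone metastasis, so a difference between them is a difference between 2 cultures.

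Desmosomes are adhesive junctions that tie the keratin filaments of neighbouring epithelial cells together. Desmogleins and desmocollins are the cadherins that span the membrane. On the inner side, plakoglobin (JUP) and the plakophilins bind their tails, and desmoplakin (DSP) joins this plaque to keratins. Plakoglobin is the closest relative of β-catenin, the transcriptional effector of the Wnt pathway, and can also bind classical cadherins.

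Levels are in CPM, that is, counts per 1e6 of a scaled library total, read from deposited log2 values that include an offset of 0.5 counts. Library totals ran from 13453614 to 21528810 estimated counts, and the limit for a gene with 0 counts, set at 3 counts, lay at 0.130 to 0.233 CPM depending on the library, counting error only. Nothing in the labels tells whether replicates are independent cultures. The p-values therefore cover the spread among these libraries, which may be technical. Several epithelial and line markers went against the labels. EPCAM had at most 3 estimated counts and CDH1, which encodes E-cadherin, at most 11 in any library, whereas KRT18 stood between 338 and 2023 CPM and KRT8 between 16.2 and 2896 CPM. CTNNA1, which encodes α-catenin and is known to be deleted in PC3, stood at 377 to 416 CPM in the 6 libraries labelled PC3. DU145 and PC3 therefore mean the libraries labelled so throughout, and the part of this mismatch in the results was not tested. Leukocyte, fibroblast, endothelial and smooth muscle markers summed to at most 0.856, 3.68, 1.19 and 3.07 CPM in any library. Among them the collagen gene COL3A1 had 169 estimated counts over the PC3 GFP+ libraries and 1 over the PC3 GFP- libraries, and the endothelial cadherin gene CDH5 had 57 in PC3 GFP+ and 14 in PC3 GFP-. The smooth muscle gene MYH11 had 144 in PC3 GFP+ and 97 in PC3 GFP-. Other markers had fewer counts in PC3 GFP+ than in PC3 GFP-: COL1A1 (39 and 56), CD14 (5 and 19), VWF (2 and 5) and PECAM1 (1 and 3). The fibroblast marker sum was 2.85 to 3.68 CPM in PC3 GFP+ and 0.815 to 1.78 CPM in PC3 GFP- libraries, and the endothelial sum 0.898 to 1.19 CPM in PC3 GFP+ and 0.388 to 0.611 CPM in PC3 GFP- libraries, while COL1A2, LUM and PTPRC had at most 2 counts in each of these groups. The part of these markers in the PC3 results was not tested. The DU145 sort difference ran against GC content (Spearman rho = -0.63 over 12510 genes, which are not independent), and its median log2 fold change was 0.50 in genes below 40.9% GC (the lowest 20%) and -0.26 in those above 58.4% (the highest 20%). Relative to the mean of the line, rho was -0.66 and -0.62 in DU145 GFP+ replicates 1 and 2 and 0.19 in replicate 3. In DU145 GFP- replicates 1, 2 and 3 it was 0.56, 0.19 and 0.65. Values corrected for this trend are therefore given for the members in DU145. They are also given for other named genes called there where the correction ends the call or moves the value by over 1.5 times. The PC3 sort difference had rho = -0.10, but rho was 0.58 and -0.40 in PC3 GFP- replicates 2 and 3. Corrected PC3 values are given for PKP2, PKP4 and PERP, the members called there after correction. In bulk libraries, fewer cells of a type and less RNA per cell cannot be told apart.

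**Figure D1:**
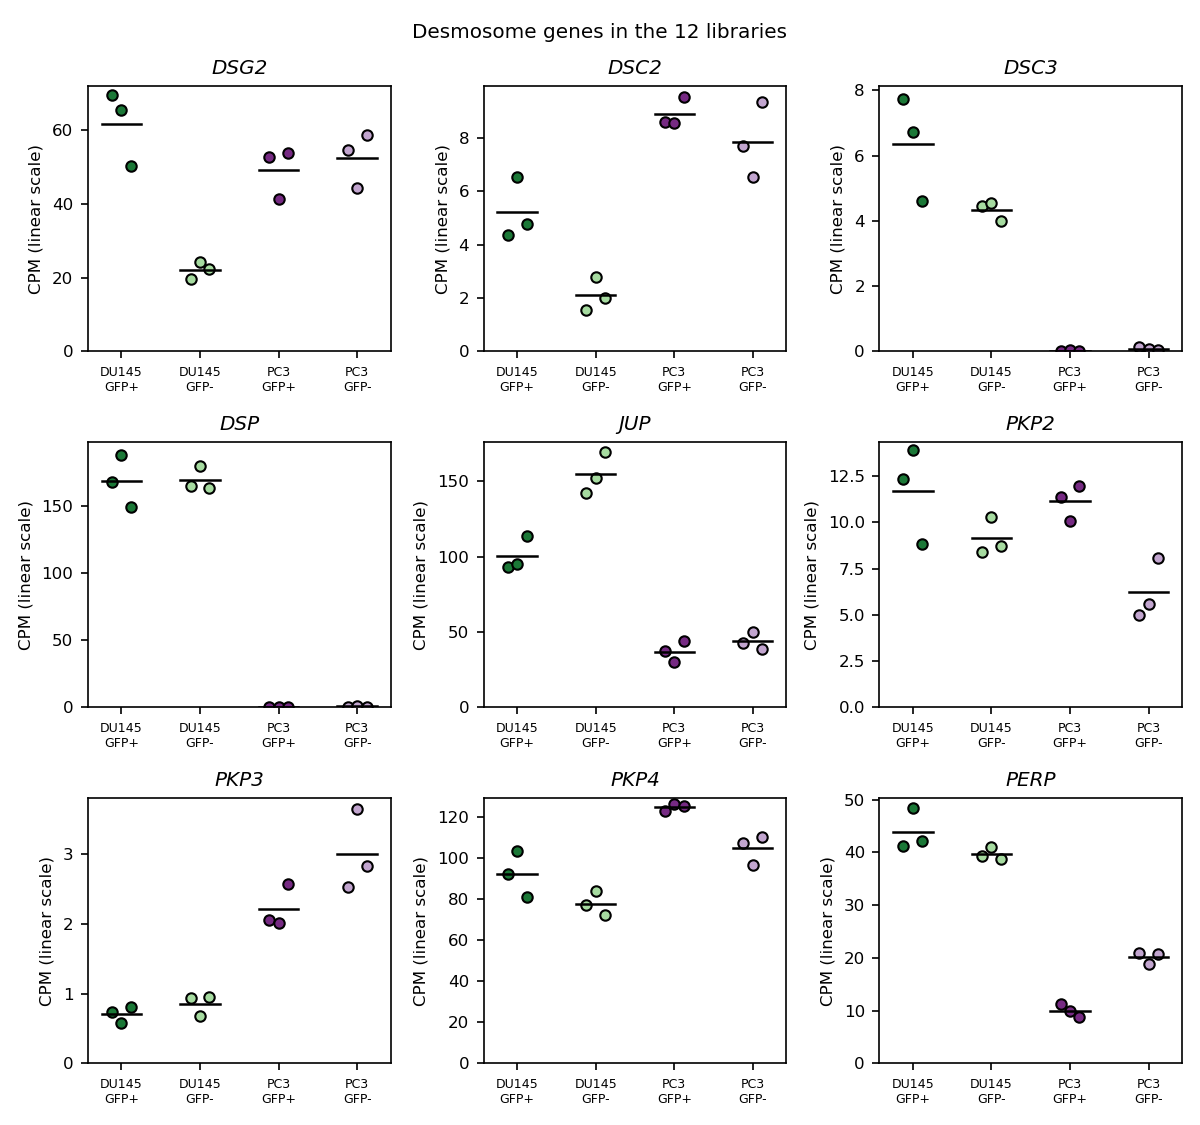
Level of each desmosome gene in the 12 libraries, in CPM on a linear axis that starts at 0. Points are libraries and bars are means of 3. DSG2 and DSC2 were higher in DU145 GFP+ than in DU145 GFP- libraries without overlap, PERP was lower in PC3 GFP+ than in PC3 GFP- libraries without overlap, and DSP and DSC3 lay near 0 in the libraries labelled PC3.

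In DU145, the desmosomal cadherin genes DSG2 and DSC2 rose in GFP+ cells and the plakoglobin gene JUP fell, while DSP did not pass the test (limma, adjusted p under 0.05). In PC3, PKP2 rose and PERP fell. Thus 3 of 9 members were called in DU145, where 27.1% of the 12527 genes tested were called (13.1% higher and 13.9% lower), and 2 of 9 in PC3, where 9.44% were called (4.17% higher and 5.27% lower). The median log2 fold change of the members was 0.24 in DU145 against -0.01 over all genes tested, and -0.25 in PC3 against -0.02. All 9 members passed the expression minimum of 1 CPM in at least 3 libraries, DSC3 and DSP through the DU145 libraries and PKP3 through the PC3 libraries.

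The cadherins come first. DSG2 (ENSG00000046604, chromosome 18, 31498043 to 31549008, plus strand; all positions are GENCODE 29 on GRCh38) encodes desmoglein 2, the desmoglein of simple epithelia. It stood at 69.4, 65.4 and 50.2 CPM in DU145 GFP+ libraries, against 19.5, 24.2 and 22.3 CPM in DU145 GFP- libraries. All 3 GFP+ values lay above the GFP- values. The log2 fold change was 1.48 ± 0.15 (SE, 2.79-fold, limma adjusted p = 5.71e-05), and 1.15 ± 0.08 after that trend, and one with transcript length, was removed by a smooth fit (adjusted p = 5.95e-07). In PC3 the DSG2 values were 52.6, 41.2 and 53.8 CPM in GFP+ libraries and 54.5, 44.4 and 58.7 CPM in GFP- libraries. These overlapped, and the change was -0.09 ± 0.15 (limma adjusted p = 0.787).

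DSC2 (ENSG00000134755, chromosome 18, 31058840 to 31102522, minus strand) encodes desmocollin 2, the most widely expressed desmocollin. It stood at 4.35, 6.54 and 4.77 CPM in DU145 GFP+ libraries, against 1.55, 2.81 and 2.01 CPM in DU145 GFP- libraries, again without overlap. The log2 fold change was 1.32 ± 0.24 (2.50-fold, limma adjusted p = 0.00384), from 230 against 98 estimated counts. It was 0.73 ± 0.24 after the GC and length correction (adjusted p = 0.045), and the call was lost without both DU145 GFP+ replicates 1 and 2 (adjusted p = 0.128). In PC3, DSC2 values of 8.59, 8.57 and 9.56 CPM in GFP+ libraries overlapped those of 7.72, 6.55 and 9.35 CPM in GFP- libraries (0.19 ± 0.24, limma adjusted p = 0.72).

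DSC3 (ENSG00000134762, chromosome 18, 30990008 to 31042815, minus strand) encodes desmocollin 3, a desmocollin of basal cells in stratified epithelia. It stood at 7.75, 6.72 and 4.62 CPM in DU145 GFP+ libraries, against 4.46, 4.55 and 3.98 CPM in DU145 GFP- libraries. The lowest GFP+ value was only slightly above the highest GFP- value, and the change did not pass (0.52 ± 0.53, limma adjusted p = 0.461, and 0.07 after the GC and length correction). The standard error of DSC3 rests on a spread shared by all groups, so the PC3 libraries with few or no counts enter it. DSC3 was called in DU145 in 0 of 25 alternatives, among them a fit of each line alone. In PC3 it had 0 counts in all 3 GFP+ libraries and 2, 1 and 0 counts in the GFP- libraries, so no fold change is given and no difference between the PC3 sorts was detectable at this depth (limma adjusted p = 0.0779, but 0.00726 without PC3 GFP- replicate 3). The other desmosomal cadherin genes DSG1, DSG3, DSG4 and DSC1 and the corneodesmosin gene CDSN were below the minimum, with at most 9 estimated counts summed over any group of 3 libraries (DSG3 in PC3 GFP-). PKP1 was not analysed here.

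The promoters of DSG2 and DSC2 are shown because these genes rose together in DU145, that of DSP because its transcript was near 0 in PC3, and that of PERP because it fell in PC3. The sequences run 5′ to 3′ on the gene's strand from 250 bases before to 50 bases after a start listed by RefSeq (GRCh38.p14): DSG2 at chr18:31497927-31498226 on the plus strand, DSC2 at chr18:31102372-31102671 on the minus strand, DSP at chr6:7541421-7541720 on the plus strand and PERP at chr6:138107370-138107669 on the minus strand. Capitals mark CACCTG, the E-box recognised by repressors of the ZEB and SNAI families, or the AP-1 motif (TGACTCA or TGAGTCA), each on either strand.
DSG2: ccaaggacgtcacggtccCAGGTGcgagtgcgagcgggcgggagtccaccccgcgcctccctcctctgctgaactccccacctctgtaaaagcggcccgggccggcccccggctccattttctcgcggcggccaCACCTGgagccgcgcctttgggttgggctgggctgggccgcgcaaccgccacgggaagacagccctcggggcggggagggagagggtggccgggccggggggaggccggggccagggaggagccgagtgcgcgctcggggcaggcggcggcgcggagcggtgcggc
DSC2: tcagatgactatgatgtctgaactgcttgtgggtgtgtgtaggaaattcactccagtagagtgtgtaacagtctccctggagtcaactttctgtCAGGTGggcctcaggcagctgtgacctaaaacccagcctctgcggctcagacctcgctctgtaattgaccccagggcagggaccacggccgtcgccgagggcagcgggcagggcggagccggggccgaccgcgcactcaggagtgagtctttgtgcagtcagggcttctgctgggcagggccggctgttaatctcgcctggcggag
DSP: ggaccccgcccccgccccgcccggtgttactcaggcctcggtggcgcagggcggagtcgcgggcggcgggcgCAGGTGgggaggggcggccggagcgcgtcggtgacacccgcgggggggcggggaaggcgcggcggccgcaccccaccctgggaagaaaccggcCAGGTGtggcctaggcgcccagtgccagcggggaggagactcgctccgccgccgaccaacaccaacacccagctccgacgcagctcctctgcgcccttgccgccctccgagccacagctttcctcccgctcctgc
PERP: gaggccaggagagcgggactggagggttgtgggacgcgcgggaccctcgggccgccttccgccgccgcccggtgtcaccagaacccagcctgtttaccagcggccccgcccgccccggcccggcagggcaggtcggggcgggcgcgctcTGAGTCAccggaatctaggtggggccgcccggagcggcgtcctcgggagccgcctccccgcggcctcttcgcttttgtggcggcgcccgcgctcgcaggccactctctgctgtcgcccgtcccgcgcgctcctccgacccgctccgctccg
RefSeq promoters were matched for 7 of the 9 members, some with more than 1 start. CACCTG was found at a start of 4 of them (DSG2, DSC2, DSP and JUP) and in 20.6% of all 35116 promoters of this length, and the AP-1 motif at 1 of them (PERP) and in 4.95%. DSC2 and JUP each also have a listed start without CACCTG, that of DSC2 at chr18:31101211-31101510 (not shown). Members are counted by gene over all their starts and the shares by promoter, so these are not like for like. The TCF/LEF motif (CTTTG followed by AA, by AT, by TA or by TT), through which β-catenin acts on its targets, was in none of the 7 and in 13.8% of all. The member promoters had 60.7% to 77% GC, against a median of 58.7% over all promoters, and the part of GC content in the matches was not tested. These are matches of letters in a short window and show no binding.

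**Figure D2:**
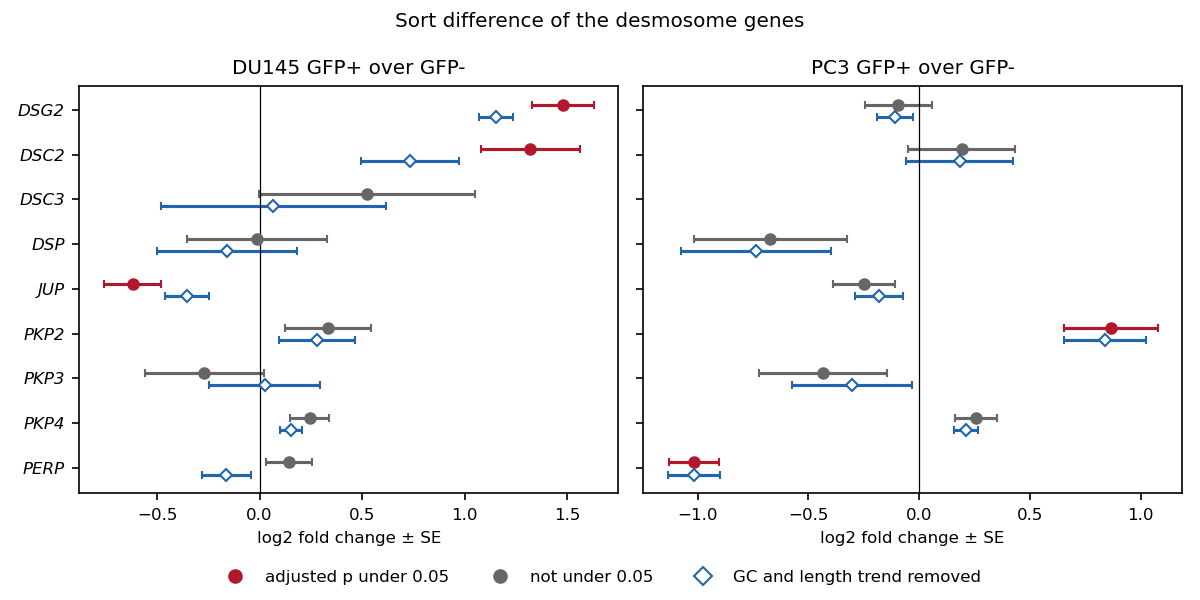
Log2 fold change of each desmosome gene, GFP+ over GFP-, with its standard error, in DU145 (left) and PC3 (right). Filled circles are the limma estimates and open diamonds the estimates after the GC and length correction; DSC3 is left out in PC3, where it had at most 2 counts in a library. DSG2 and DSC2 lie furthest to the right in DU145, and PERP furthest to the left in PC3.

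Among the plaque genes, JUP and the plakophilins varied in different directions. JUP (ENSG00000173801, chromosome 17, 41754604 to 41786931, minus strand) stood at 93.2, 95.1 and 114 CPM in DU145 GFP+ libraries, against 142, 152 and 169 CPM in DU145 GFP- libraries. Every GFP+ value was below every GFP- value. The log2 fold change was -0.62 ± 0.14 (limma adjusted p = 0.01), and -0.36 ± 0.11 after the GC and length correction (adjusted p = 0.0303). The call was lost without DU145 GFP- replicate 3 (adjusted p = 0.0535) and without both DU145 GFP+ replicates 1 and 2 (adjusted p = 0.4). In PC3, JUP values of 37.2, 29.8 and 44.0 CPM in GFP+ libraries overlapped those of 42.8, 49.9 and 38.4 CPM in GFP- libraries (-0.25 ± 0.14, limma adjusted p = 0.324). The gene of its relative β-catenin, CTNNB1, averaged 483 ± 29.2 CPM in DU145 GFP+ and 477 ± 23.9 CPM in DU145 GFP- libraries (SD, n = 3 each; 0.02 ± 0.07 with SE, limma adjusted p = 0.867). In PC3 it averaged 358 ± 22.7 CPM in GFP+ and 320 ± 19.5 CPM in GFP- libraries (0.16 ± 0.07, limma adjusted p = 0.23).

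PKP2 (ENSG00000057294, chromosome 12, 32790745 to 32896840, minus strand) encodes plakophilin 2, the plakophilin of simple epithelia and heart. It stood at 11.4, 10.1 and 11.9 CPM in PC3 GFP+ libraries, against 4.98, 5.61 and 8.09 CPM in PC3 GFP- libraries. The sorts did not overlap, and GFP- replicate 3 came nearest to the GFP+ values. The log2 fold change was 0.87 ± 0.21 (1.82-fold, limma adjusted p = 0.02), and 0.84 ± 0.18 after the GC and length correction (adjusted p = 0.00514). The call was lost without PC3 GFP+ replicate 1 or 3 or PC3 GFP- replicate 1 or 2, with adjusted p = 0.0715, 0.0727, 0.0869 and 0.0591. In DU145, PKP2 values of 12.3, 13.9 and 8.81 CPM in GFP+ libraries overlapped those of 8.39, 10.3 and 8.72 CPM in GFP- libraries (0.33 ± 0.21, limma adjusted p = 0.236, and 0.28 after correction).

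PKP3 and PKP4 did not pass in either line, PKP4 narrowly. PKP3 (ENSG00000184363, chromosome 11, 392614 to 404908, plus strand), which encodes a plakophilin that binds most other desmosomal proteins, had 10, 9 and 10 estimated counts in DU145 GFP+ and 15, 10 and 14 in DU145 GFP- libraries (-0.27 ± 0.29, limma adjusted p = 0.493, and 0.024 after correction). In PC3 it stood at 2.05, 2.01 and 2.58 CPM in GFP+ and 2.53, 3.65 and 2.84 CPM in GFP- libraries (-0.43 ± 0.29, limma adjusted p = 0.423). The sorts overlapped in each line.

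PKP4 (ENSG00000144283, chromosome 2, 158456964 to 158682879, plus strand), also called p0071, is a p120-catenin relative found at adherens junctions as well as desmosomes. It stood at 92.2, 103 and 81.1 CPM in DU145 GFP+ libraries, against 77.1, 83.7 and 72.1 CPM in DU145 GFP- libraries (0.24 ± 0.09, limma adjusted p = 0.0649, and 0.15 after correction). In PC3 the PKP4 values were 123, 126 and 125 CPM in GFP+ libraries and 107, 96.5 and 110 CPM in GFP- libraries (0.26 ± 0.09, limma adjusted p = 0.108). The sorts overlapped in DU145 and not in PC3. With the GC and length correction, PKP4 passed in PC3 (0.21 ± 0.05, limma adjusted p = 0.0134). Over all alternatives it passed in 6 of 26 in DU145, among them without DU145 GFP+ replicate 3 (adjusted p = 0.00978), DU145 GFP- replicate 2 (0.0471) or PC3 GFP- replicate 2 (0.0481), and in 3 of 26 in PC3. Its estimated counts were fractional in 3 libraries, and the part of shared reads in its values was not tested.

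DSP (ENSG00000096696, chromosome 6, 7541575 to 7586717, plus strand) stood at 168, 188 and 149 CPM in DU145 GFP+ libraries and at 164, 179 and 163 CPM in DU145 GFP- libraries. The sorts overlapped, with a log2 fold change of -0.01 ± 0.34 (limma adjusted p = 0.982, and -0.16 after correction). The standard error of DSP rests on a spread shared by all groups, so the PC3 libraries with few counts enter it. DSP was called in DU145 in 0 of 26 alternatives, among them a fit of each line alone. In PC3 it had 5, 6 and 13 estimated counts in GFP+ libraries and 6, 19 and 8 in GFP- libraries (-0.67 ± 0.34, limma adjusted p = 0.274).

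PERP (ENSG00000112378, chromosome 6, 138088505 to 138107511, minus strand) encodes a tetraspan membrane protein that is needed for stable desmosomes in mouse skin and is a target of p53 and p63. It stood at 11.2, 9.96 and 8.82 CPM in PC3 GFP+ libraries, against 20.99, 18.8 and 20.7 CPM in PC3 GFP- libraries. All GFP+ values lay well below the GFP- values. The log2 fold change was -1.02 ± 0.11 (limma adjusted p = 7.15e-05), and it was -1.02 ± 0.12 after the GC and length correction. In DU145, PERP values were 41.2, 48.4 and 42.3 CPM in GFP+ libraries and 39.3, 41.0 and 38.7 CPM in GFP- libraries. They were narrowly separate, and the change did not pass (0.14 ± 0.11, limma adjusted p = 0.346) and had the opposite sign after the GC and length correction (-0.16 ± 0.12, adjusted p = 0.36).

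**Figure D3:**
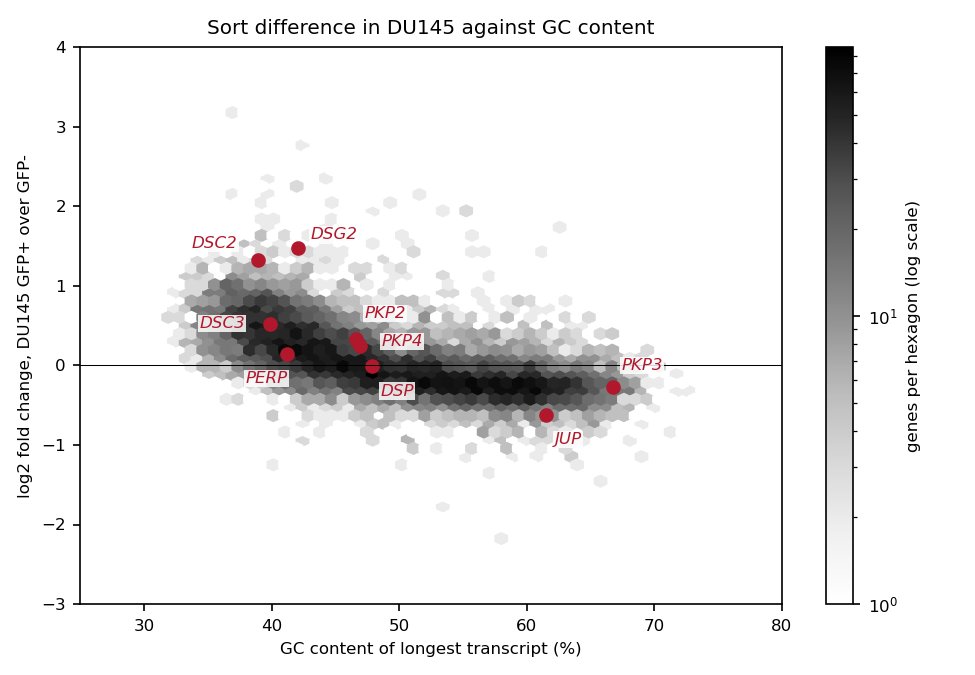
Log2 fold change of DU145 GFP+ over GFP- against the GC content of the longest annotated transcript, for the genes tested (grey hexagons, darker with more genes) and the desmosome genes (red). DSG2 and DSC2 lie above the bulk of genes of like GC content, JUP lies below it, and the other 6 members lie within it.

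The GC content of the members moved with their DU145 changes, so the genes nearest to them in GC content are given for scale. DSG2 has 42.0% GC, and genes within 1 percentage point of it had a median log2 fold change of 0.27 in DU145, against 1.48 for DSG2. DSC2 has 38.9% GC, and its like-GC genes had a median of 0.50, against 1.32 for DSC2. JUP has 61.5% GC, and its like-GC genes had a median of -0.27, against -0.62 for JUP. For DSC3 (39.9% GC) the like-GC median was 0.44 beside its own 0.52, and for PERP (41.2% GC) it was 0.33 beside 0.14. The part of GC content in each change was not tested beyond the removal of the trend.

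The sort effect itself was compared between the lines. It differed for 3 of 9 members, DSG2, PERP and DSC2, where 15.9% of all genes tested differed (7.06% with the more positive effect in DU145 and 8.82% with the more negative). The DU145 effect exceeded the PC3 effect by 1.57 ± 0.21 on the log2 scale for DSG2 (limma adjusted p = 0.000474) and by 1.16 ± 0.16 for PERP (limma adjusted p = 0.000533). Both kept their calls in each of the 25 alternatives run. For DSC2 the difference was 1.13 ± 0.34 (limma adjusted p = 0.0409), and it did not hold without DU145 GFP+ replicate 2, DU145 GFP- replicate 1 or 3, any PC3 GFP+ replicate, or PC3 GFP- replicate 1 or 3 (adjusted p = 0.0597 to 0.103) or after the GC and length correction (0.55 ± 0.34, adjusted p = 0.264). For JUP it was -0.37 ± 0.20 (limma adjusted p = 0.203) and for PKP2 -0.53 ± 0.30 (limma adjusted p = 0.226), so the calls of these genes in 1 line were not shown to differ from the other line.

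Levels between genes were compared per kilobase of the longest annotated transcript, on the scale of CPM per kb. With both sorts averaged, the order in DU145 was JUP (26.7 to 48.4 over the 6 libraries), DSP (15.2 to 19.2), PKP4 (12.5 to 17.9), PERP (9.03 to 11.3), DSG2 (3.34 to 11.9), PKP2 (1.95 to 3.23), DSC3 (0.571 to 1.11), DSC2 (0.125 to 0.531) and PKP3 (0.204 to 0.340). The neighbours DSP and PKP4, PERP and DSG2, and DSC2 and PKP3 overlapped. The order of 2 of these pairs depended on the sort: DSG2 averaged 10.57 and PERP 10.24 in DU145 GFP+ libraries, against 3.77 and 9.25 in DU145 GFP- libraries, and DSC2 averaged 0.424 and PKP3 0.253 in DU145 GFP+ libraries, against 0.172 and 0.305 in DU145 GFP- libraries. In PC3 the order was PKP4 (16.7 to 21.9), JUP (8.53 to 14.3), DSG2 (7.06 to 10.1), PERP (2.06 to 4.89), PKP2 (1.16 to 2.78), PKP3 (0.717 to 1.30), DSC2 (0.532 to 0.776), DSP (0.0259 to 0.111) and DSC3. There JUP and DSG2, PERP and PKP2, PKP2 and PKP3, and PKP3 and DSC2 overlapped. DSP thus ranked 2 of 9 in DU145 and 8 of 9 in PC3.

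**Figure D4:**
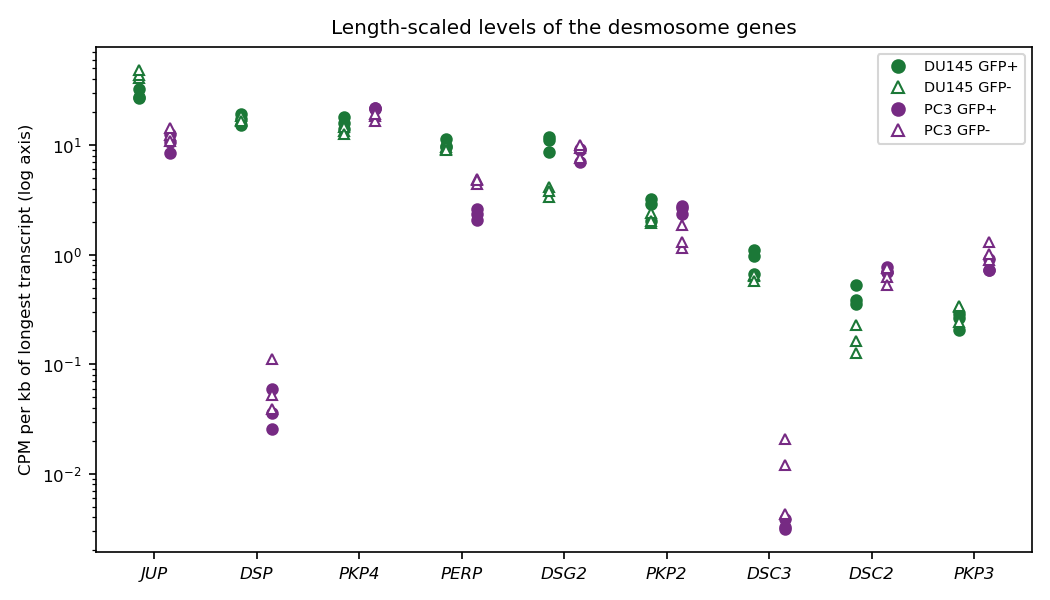
Level of each desmosome gene per kilobase of its longest annotated transcript, in CPM per kb on a log axis, in DU145 (green) and PC3 (purple). Circles are GFP+ and open triangles GFP- libraries. The values of DSC3 in PC3 are set by the offset, since its count was 0 in 4 of the 6 libraries.

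Between the lines, 8 of the 9 members differed with both sorts averaged, 4 higher and 4 lower in DU145 (limma, adjusted p under 0.05), where 77.5% of all genes tested differed (38.3% higher and 39.2% lower). DSC3 and DSP met the expression minimum only through the DU145 libraries, and PKP3 only through the PC3 libraries, where each is high. Their calls are counted here but not used as support. DSP showed the widest gap with counts in both lines. It had 7400 estimated counts summed over the DU145 GFP+ libraries and 24 over the PC3 GFP+ libraries, a ratio of depth-scaled counts of 448 (95% exact binomial interval 301 to 700, counting error only). In the GFP- sorts it had 7963 counts in DU145 and 33 in PC3, a ratio of 265 (189 to 386). In the 6 PC3 libraries DSP stood at 0.150% to 0.646% of its mean DU145 level. As a description, the median of 26 genes chosen by the same kind of gap, DSP among them, was 0.196% to 0.387% in those libraries. Whether the residue was transcribed in these cells was not tested.

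DSC3 had 279 estimated counts summed over the DU145 GFP+ libraries and 0 over the PC3 GFP+ libraries, which is at least 135-fold higher in DU145 against a floor of 3 counts over the group. In the GFP- sorts it had 203 counts in DU145 and 3 in PC3, a ratio of 74.4 with a 95% exact binomial interval of 25.1 to 364. JUP was 3.12-fold higher in DU145 (log2 difference 1.64 ± 0.10, limma adjusted p = 4.26e-09) and PERP 2.94-fold higher (1.56 ± 0.08, limma adjusted p = 8.37e-10). All 6 DU145 libraries lay above all 6 PC3 libraries for JUP and PERP. They also did so for DSC3 and DSP, which met the expression minimum only through the DU145 libraries. How many of all genes tested separated in this way was not computed, and 77.5% differed between the lines by limma.

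PKP3 stood at 0.572 to 0.955 CPM over 6 DU145 libraries against 2.01 to 3.65 CPM in PC3 (log2 difference -1.73 ± 0.21). This is a description, since PKP3 met the expression minimum only through the PC3 libraries. DSC2 was lower in DU145 (-1.36 ± 0.17, limma adjusted p = 6.91e-06), by less after the GC and length correction (-0.41 ± 0.17, adjusted p = 0.0383). PKP4 was lower by a smaller step (-0.44 ± 0.07, limma adjusted p = 3.46e-05). DSG2 was also lower in DU145 (-0.46 ± 0.11, limma adjusted p = 0.00125), through the GFP- sort, and its call was lost and its sign turned after the GC and length correction (0.04 ± 0.06, adjusted p = 0.494). PKP2 did not pass (0.31 ± 0.15, limma adjusted p = 0.0686), although it did with equal medians (adjusted p = 0.00719) and after the GC and length correction (adjusted p = 0.012).

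DSG2, DSC2 and DSC3 lie in a single cluster of desmosomal cadherin genes on the long arm of chromosome 18, so the genes around them were examined. Of 37 genes of the table that start within 5 Mb of the start of DSG2, 23 passed the minimum, 20 of them no members. In DU145, 11 of these 20 rose and 0 fell, against 13.1% higher over all genes tested, and their median log2 fold change was 0.47. With the GC and length correction, 5 of the 20 rose and 0 fell, with a median of 0.26, where 8.82% of all genes were higher and 11.3% lower. In PC3, 1 rose (RNF125) and 1 fell (FHOD3), with a median of 0.10. On the rest of the long arm, beyond 5 Mb from DSG2, 54 of 105 genes rose and 3 fell in DU145 (40 and 3 after that correction). In PC3, 12 of these 105 rose and 4 fell, where 4.17% of all genes rose, and after that correction 30 rose and 6 fell, where 10.4% rose.

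The largest change in that window was in CDH2, the gene of N-cadherin, a classical cadherin. It averaged 5.85 ± 1.47 CPM in DU145 GFP+ and 1.10 ± 0.448 CPM in DU145 GFP- libraries (SD, n = 3 each; log2 fold change 2.46 ± 0.25 with SE, limma adjusted p = 5.09e-05). The zinc finger gene ZNF397 rose by 1.04 ± 0.19 in DU145 (limma adjusted p = 0.00389). B4GALT6, a glycosyltransferase gene, had 1.19 ± 0.30 (limma adjusted p = 0.0163), but 0.53 after the GC and length correction (adjusted p = 0.0613), and was called in 9 of the 12 fits that each left out 1 library. In PC3, CDH2 averaged 81.6 ± 4.08 CPM in GFP+ and 62.6 ± 1.25 CPM in GFP- libraries and did not pass (0.38 ± 0.25, limma adjusted p = 0.402). The antisense genes DSG2-AS1 and DSCAS, which overlap DSG2 and DSC2, reached at most 0.0896 and 0.149 CPM in any library. Whether the counting used strand is not given in the sources used here, so reads of a gene and its antisense partner cannot be told apart.

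**Figure D5:**
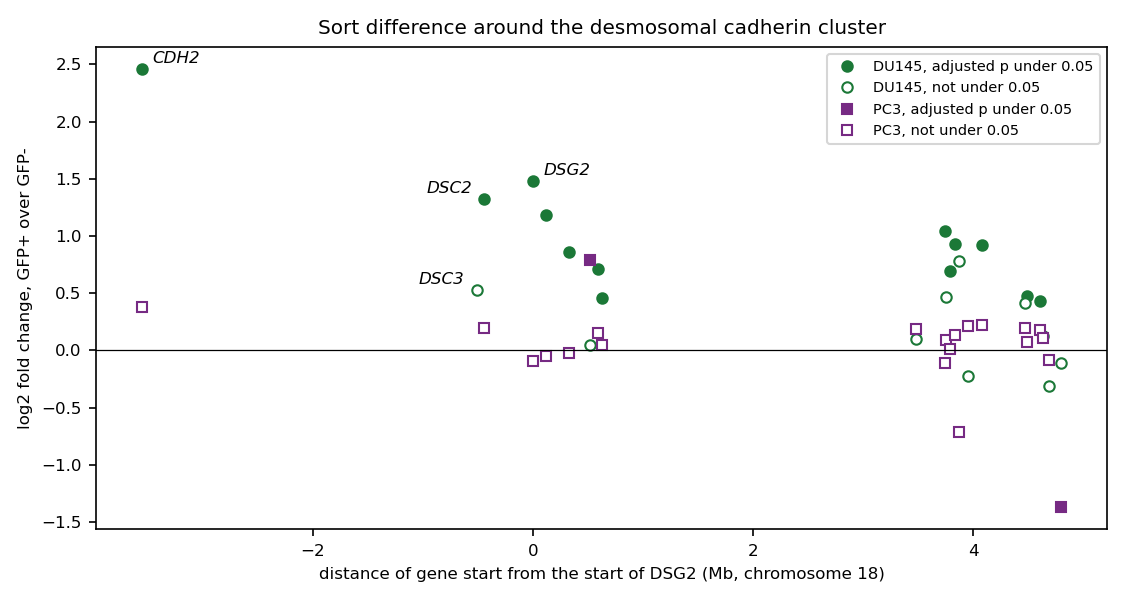
Log2 fold change, GFP+ over GFP-, of the 23 tested genes that start within 5 Mb of DSG2, against the distance of their start from that of DSG2. Circles are DU145 and squares PC3 (DSC3 not drawn in PC3), filled where the adjusted p was under 0.05. Most DU145 points lie above 0, with CDH2, DSG2 and DSC2 highest, while most PC3 points lie near 0.

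Genes of neighbouring structures were counted from lists, set beside the shares over all genes given above. Of 16 adherens junction genes, 9 were tested. In DU145, 1 rose (CDH2) and 1 fell (NECTIN1, -0.30 ± 0.10, limma adjusted p = 0.0473, and not past the threshold once the trend was removed, at adjusted p = 0.469), with a median of 0.01. In PC3, 0 rose and 1 fell, VCL, the gene of the actin linker vinculin (-0.38 ± 0.07, limma adjusted p = 0.00474), with a median of -0.09. Of 7 plakin and linker genes, 1 rose and 1 fell in DU145 (EVPL and PLEC) and 0 rose and 2 fell in PC3 (PPL and EVPL), with medians of 0.39 and 0.02. PPL, the gene of periplakin, a relative of desmoplakin, averaged 16.2 ± 0.592 CPM in PC3 GFP+ and 43.1 ± 4.57 CPM in PC3 GFP- libraries (SD, n = 3 each; -1.41 ± 0.16 with SE, limma adjusted p = 7.73e-05). EVPL, the gene of envoplakin, which pairs with periplakin, had 85 counts over the DU145 GFP+ and 16 over the DU145 GFP- libraries, and 0 over the PC3 GFP+ and 7 over the PC3 GFP- libraries. It met the expression minimum only through the DU145 GFP+ libraries, where it is high, so its calls are counted above but not used as support. PLEC, the gene of plectin, fell in DU145 (-0.26 ± 0.07, limma adjusted p = 0.026, and 0.519 after that correction).

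Of 15 intermediate filament genes, which include the keratins that desmoplakin anchors, 8 were tested. In DU145, 0 rose and 3 fell (median -0.29), but after the GC and length correction 2 were higher, KRT7 (1.09, adjusted p = 0.00919) and KRT80 (0.46, adjusted p = 0.000394), and 3 lower. In PC3, 0 rose and 2 fell (median -0.35). KRT8 fell in both lines, to 1753 ± 193 CPM in DU145 GFP+ against 2755 ± 169 CPM in DU145 GFP- libraries, and to 18.1 ± 2.09 CPM in PC3 GFP+ against 26.1 ± 2.43 CPM in PC3 GFP- libraries (SD, n = 3 each; limma adjusted p = 0.00152 and 0.0055). After correction its log2 fold change in DU145 was -0.43, against -0.66 before. Its partner KRT18 fell in DU145 (-0.52 ± 0.12, limma adjusted p = 0.0121, and -0.29 after correction). KRT80 fell in PC3 (-0.48 ± 0.10, limma adjusted p = 0.00975).

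Of 7 hemidesmosome genes, which anchor cells to the basement membrane, all were tested. In DU145, 2 rose and 1 fell (median -0.20), and 1 and 1 after the GC and length correction. In PC3, 1 rose and 1 fell (median -0.07), and 1 and 2 after that correction. ITGA6, the α6 integrin gene, rose in DU145 (0.34 ± 0.11, limma adjusted p = 0.039), with 0.06 after correction (adjusted p = 0.445). LAMB3, a laminin chain gene, fell in DU145 (-2.47 ± 0.18, limma adjusted p = 4.26e-06) and rose in PC3 (0.63 ± 0.18, limma adjusted p = 0.0423). LAMA3, another laminin chain gene, rose in DU145 (0.76 ± 0.23, limma adjusted p = 0.0312), and ITGB4, the β4 integrin gene, fell in PC3 (-1.15 ± 0.27, limma adjusted p = 0.0174). Of 14 turnover and signaling genes, 12 were tested, of which 2 rose and 1 fell in DU145 (median 0.14) and 1 rose and 3 fell in PC3 (median -0.11). ADAM10, which encodes a sheddase that cleaves desmoglein 2, rose in DU145 (0.78 ± 0.16, limma adjusted p = 0.00706), with 0.17 after correction (adjusted p = 0.0833). In PC3, the receptor tyrosine kinase gene ERBB2 fell (-0.54 ± 0.09, limma adjusted p = 0.00149) and the membrane metalloproteinase gene MMP14 rose (0.47 ± 0.11, limma adjusted p = 0.0138).

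Of 18 epithelial transcription factor and repressor genes, 10 were tested, of which 3 rose and 1 fell in DU145 (median -0.08; 1 and 0 after correction) and 0 rose and 1 fell in PC3 (median -0.09). ZEB1, a relative of ZEB2, had 0.98 ± 0.27 in DU145 (limma adjusted p = 0.0221) and 0.47 after correction (adjusted p = 0.0668). KLF4, an epithelial differentiation factor gene, averaged 2.52 ± 0.663 CPM in DU145 GFP+ and 0.651 ± 0.207 CPM in DU145 GFP- libraries (SD, n = 3 each; 1.96 ± 0.27 with SE, limma adjusted p = 0.000729). ZEB2, a repressor of E-cadherin, rose in DU145 at a low level (1.30 ± 0.28, limma adjusted p = 0.00873, and 0.0613 after that correction), and SNAI1, another such repressor, fell in PC3 (-1.11 ± 0.21, limma adjusted p = 0.00394), as it did in DU145 (-0.60 ± 0.21, limma adjusted p = 0.046, and 0.151 after that correction). Of 8 PMP22 family and p53 target genes, the classes to which PERP belongs, all were tested, of which 1 rose and 1 fell in DU145 (median 0.05) and 0 passed in PC3 by limma (median 0.00, with 1 of them at an unadjusted p under 0.05 and 1, BAX, higher after that correction). MDM2, a p53 target, rose in DU145 (0.99 ± 0.21, limma adjusted p = 0.00699, and 0.54 after correction), and BAX, another, fell (-0.30 ± 0.10, limma adjusted p = 0.0461, and 0.703 after that correction).

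Several of these list calls depended on single libraries. Over the 12 fits that each left out 1 library, LAMB3 in PC3 and SNAI1 in DU145 were called in 5. NECTIN1 and BAX in DU145 were called in 3, ITGA6 in DU145 in 4, LAMA3 in DU145 in 7 and PLEC in DU145 in 8. KRT18 in DU145 and ITGB4 and MMP14 in PC3 were called in 9, and ZEB1 in DU145 also in 9.

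By the likeness of their values over the 12 libraries after subtracting the mean of the line (Pearson r, described over 12521 genes and without a test), DSG2 was nearest to ZNHIT6 (0.987) and KMT2C (0.981). DSC2 was nearest to KDSR (0.981), which also lies on chromosome 18, and MAML3 (0.965). JUP was nearest to BRSK2 (0.967) and GLIPR2 (0.956), PKP2 to ZSCAN32 (0.962) and GABBR1 (0.940), and PERP to DMD (0.969) and SEC24B (0.968). For DSP, whose sorts did not separate, the highest r was 0.866 (HERPUD1). The libraries share depth and GC trends, which enter these values.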

How the data were processed

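Total RNA of 12 sorted libraries was sequenced, and gene-level log2 values were deposited by the authors in a single table. From the values, these deposited log2 values equal the log2 of estimated counts plus 0.5 per 1e6 of a scaled library total, and the estimated counts were recovered from them. A median of 83.4% of nonzero counts in a library were whole within 0.01. STAR and DESeq2 are named, without versions, in the submitters' processing notes; no source used here gives the counting tool, strand setting or genome build. Group means were fitted with limma 3.58.1 in R 4.3.3 (8 residual degrees of freedom, eBayes with trend, Benjamini-Hochberg adjustment over 12527 genes that reached 0 in log2 in 3 or more libraries). The test was checked on simulated data with independent noise for each gene and no GC trend, so this check does not cover that trend. Positions, lengths and GC content came from GENCODE 29, which matched 18901 IDs, and promoters from RefSeq. A loess fit (span 0.4) on GC content and length was removed from each library in an alternative. Replicates differed by 5.48 to 39.9 times the sampling variance, so none was counted as a repeat of another. Genes of each list were named by the 2 smallest p-values per line, plus CTNNB1 and tested neighbours within 5 Mb of DSG2. ITGA6, KRT7, ZEB1 and PRKCA were named after their values were seen. Members and lists were chosen with earlier results of these data known. Some marker genes are not reported here.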

Additional observations from a re-analysis of the deposited data

Results flagged for a closer look

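The effect of the sort differed between DU145 and PC3, by the test of the difference itself (limma, adjusted p under 0.05), for 3 desmosome genes and 13 genes of the related lists. Of all genes tested, 15.9% differed. More positive and more negative calls were 2 and 0 of 9 adherens junction genes and 2 and 0 of 7 linker genes. They were 1 and 0 of 8 intermediate filament genes and 1 and 1 of 7 hemidesmosome genes. They were 3 and 1 of 12 turnover genes, 2 and 0 of 10 transcription factor genes and 0 and 0 of 8 PERP-like genes. The DU145 effect minus the PC3 effect, in log2, was 1.57 for DSG2 (limma adjusted p = 0.000474), 1.16 for PERP (0.000533) and 1.13 for DSC2 (0.0409). The DSC2 difference was called in 4 of the 12 fits that each left out 1 library and fell short of the threshold once corrected for GC content and length, at 0.55 (adjusted p = 0.264). Among junction and linker genes it was 2.08 for CDH2 (limma adjusted p = 0.00194), 0.45 for VCL (0.0102) and 1.31 for PPL (0.00224). For EVPL it was 5.08 (limma adjusted p = 0.00144), a size set in part by the offset, since the PC3 GFP+ libraries had 0 counts, and EVPL met the expression minimum only through the DU145 GFP+ libraries. For KRT80, a keratin gene, it was 0.73 (limma adjusted p = 0.00548), for LAMA3 1.501 (0.00919) and for LAMB3 -3.10 (8.38e-06). For ADAM10 it was 1.02 (limma adjusted p = 0.0106, and 0.41 after that correction), for PRKCA 0.51 (0.0189), for ZEB1 1.57 (0.0169), for ERBB2 0.41 (0.0425), for MMP14 -0.49 (0.0458, and 0.121 after that correction) and for KLF4 2.64 (0.000815). The differences of ERBB2 and MMP14 were called in 3 and 2 of the 12 fits that each left out 1 library.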

How the results depend on the processing

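Over the 9 genes and 4 comparisons, 902 values were computed under alternatives, of which 840 kept their direction and side of the threshold, 21 lost a call, 23 gained one and 18 changed sign, 2 of these with a call. Without both DU145 GFP+ replicates 1 and 2, the members called in DU145 numbered 1 against 3, and the genes called 170 against 3389 in DU145 and 649 against 1990 in the difference between lines. Without both PC3 GFP- replicates 2 and 3, the genes called numbered 410 against 1182 in PC3 and 1188 in the difference. Quantile normalization gave 2252 genes in DU145, and removing the GC and length trend gave 2454 in PC3 (2676 with the replicate block). At a minimum of 4 in log2, only 5 of the 9 members were tested. Of these 5, 1 was called in PC3 and 5 between the lines, where 867 and 6849 of 8655 genes were called. Leaving out 1 library at a time gave 2 to 4 members and 896 to 5597 genes in DU145, 1 to 3 members and 660 to 1492 genes in PC3, 2 to 4 members and 1145 to 3661 genes in the difference, and 8 to 9 members and 9323 to 9803 genes between the lines.

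Signs turned, the cause not being tested, as follows. DSP in DU145 was 0.14 under quantile normalization and ran from -0.096 to 0.073 over the fits without 1 library. PKP2 in DU145 was -0.048 without both GFP+ replicates 1 and 2. With the GC and length trend removed, with or without the block, PKP3 in DU145 was 0.024, PERP in DU145 -0.16 and DSG2 between the lines 0.045. DSG2 in PC3 ran from -0.21 to 0.029 over the fits without 1 library. In the difference between lines, PKP3 was -0.77 under quantile normalization and -0.067 without both PC3 GFP- replicates, and PKP4 was 0.056 and 0.023 in these settings and ran from -0.098 to 0.076 over the fits without 1 library.

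Same-numbered GFP+ and GFP- libraries had deviations that correlated at -0.0202, 0.0915 and 0.213 in DU145 and 0.0594, 0.196 and 0.145 in PC3. The labels give these libraries only a shared number, and whether they also share a culture or batch cannot be told from them. Each PC3 library, but not each DU145 library, correlated best with its own number, a hint from the data and not the design. The main fit has no replicate block and called 3389, 1182 and 1990 genes in DU145, PC3 and the difference. The replicate block gave 4842, 1551 and 3321 genes called in DU145, PC3 and the difference (3420 in the difference with the GC and length trend removed), with 4, 3 and 3 members. DSC3 and DSP in PC3 and PKP3 in DU145 rest on counts too low to show modest differences. Because each gene has a spread shared by all groups, these libraries also enter the error of the same gene in the other line.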
